A study of Mus musculus with 6 samples.

Results

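Integrins and the proteins that tie them to the actin cytoskeleton were examined in RNA sequencing of mouse proB cells. The group holds 40 genes, chosen from a fixed list of names. It covers 11 integrin subunits, 17 linkers and adaptors of focal adhesions, the kinases Ptk2 and Ptk2b, and 10 further genes of adhesion receptors and small GTPases. All 40 were among the 22098 symbols of the table, each represented by its transcript with the highest mean. A mean of at least 1 RPKM (reads per kilobase of transcript, scaled to library size) over the libraries was reached by 36 of them and by 10943 symbols in all. The 4 genes under that level, Itgb5, Tln2, Parva and Bcar1, are given by their values only.

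The cells were sorted from bone marrow of C57BL/6 mice aged 6 to 7 weeks as Hardy fraction C+C' (called fraction C) and Hardy fraction B, successive stages of early B lymphocyte development. Each fraction was taken from mice mutant in zinc finger 4 of Ikaros (Ikaros_ZnF4-/-, called ZnF4), mice mutant in zinc finger 1 (Ikaros_ZnF1-/-, called ZnF1) and wild-type mice (wt). Ikaros is a transcription factor of lymphocyte development, and the series asks what its individual DNA-binding fingers do. There was 1 library for each genotype and fraction, 6 in all, so no library has a replicate to check it, and the labels do not say how many animals entered a library.

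Integrins are receptors made of an alpha and a beta chain that bind matrix proteins or ligands on other cells. Talin and kindlin bind the beta tail and switch the receptor on, often downstream of the GTPase Rap1, and vinculin, paxillin, zyxin, filamin and alpha-actinin join it to actin. Early B cells use the integrin of Itga4 and Itgb1 to hold on to Vcam1 on marrow stroma, and lymphocytes use that of Itgal and Itgb2 to bind Icam1.

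RNA of other cells differed between the libraries and bears on many of these genes. Markers of granulocytes and monocytes (22 genes) summed to 1809.9 RPKM in ZnF4, 44853 in ZnF1 and 2801.9 in wt in fraction C. In fraction B they summed to 1050 RPKM in ZnF4, 1774.4 in ZnF1 and 4007.6 in wt. Of these markers Ly6c1 was listed at 0 in 4 libraries and no other one was at 0. Red cell markers (14 of 16 listed genes were in the table) summed to 277.5 RPKM in ZnF4, 4533.8 in ZnF1 and 348.3 in wt in fraction C, and lay between 179.3 and 403.9 in fraction B. Megakaryocyte and platelet markers (12 genes) summed to 36.5 RPKM in the ZnF1 library of fraction C and to between 2.5 and 3.5 in the other 5. Natural killer (NK) cell markers (12 genes) summed to 9.9 RPKM in ZnF4, 125.7 in ZnF1 and 55.2 in wt in fraction C, and to 2.6 in ZnF4, 65.8 in ZnF1 and 106.9 in wt in fraction B. The ZnF4 library of fraction B listed 9 NK markers at 0, among them Ncr1, Klrb1c and Gzma. Markers of plasmacytoid dendritic cells (10 genes) summed to between 216.7 and 577.1 RPKM, most of it from Ly6d and Irf8, which early B cells also carry. Siglech, a surface receptor of these cells, had 0.1 RPKM in ZnF4, 33 in ZnF1 and 7.5 in wt in fraction C and 0.1 in ZnF4, 20.2 in ZnF1 and 24.2 in wt in fraction B. Markers of stroma and endothelium (12 genes) summed to between 47.3 and 81.3 RPKM and those of T cells (9 genes) to between 16.5 and 42.1 RPKM. Most of the stroma and endothelium sum came from Pecam1 (35 to 77.1 RPKM), and other markers of that list differed between libraries. In fraction C Col1a2 had 0.4 RPKM in ZnF4, 0.5 in ZnF1 and 5.2 in wt, while Cxcl12 had 3.9, 3.1 and 1.8. All 12 B-lineage genes were above 1 RPKM in every library, with sums of 4480.7 RPKM in ZnF4, 2104.3 in ZnF1 and 2720 in wt in fraction C and 4854.4 in ZnF4, 4718.9 in ZnF1 and 3290.3 in wt in fraction B. The ZnF1 library of fraction C thus stood apart by its RNA of granulocytes, monocytes, red cells and platelets. Xist was listed at 0 in all 4 mutant libraries and reached 91.9 and 81.3 RPKM in wt, so sex differs between the mutants and wt, and Flna is the 1 member on the X chromosome. Ikzf1 stood at 425.1 RPKM in ZnF4, 154.1 in ZnF1 and 169.4 in wt in fraction C.

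**Figure D1:**
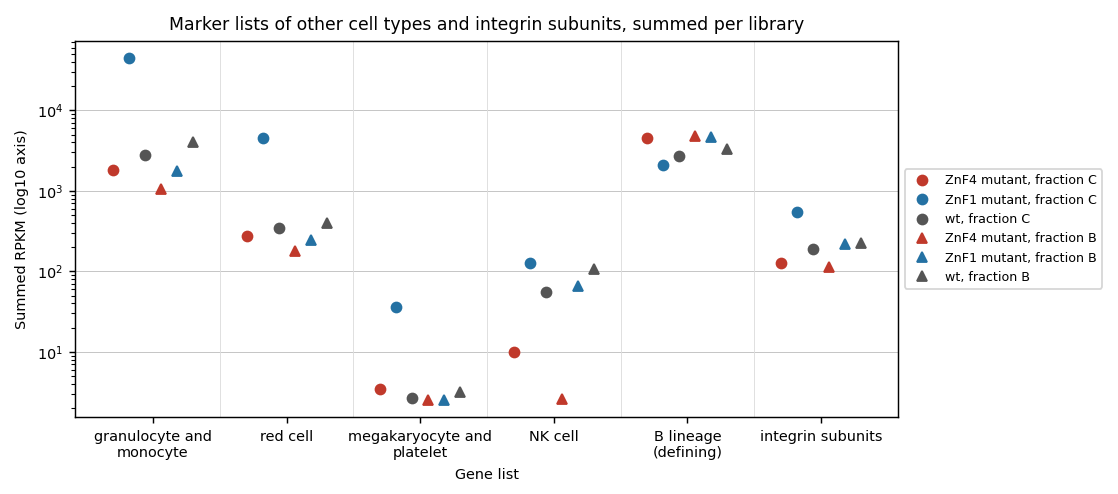
Summed RPKM (log10 axis) of 4 marker lists of other marrow cells, of B-lineage markers and of the 11 integrin subunits, 1 point per library, with colour for genotype and shape for fraction. The ZnF1 library of fraction C is the highest for granulocyte and monocyte (44853 RPKM), red cell (4533.8) and platelet markers (36.5) and for the integrin sum (553.2), and the ZnF4 libraries are the lowest for NK markers (9.9 and 2.6).

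In wild-type proB cells the adhesion machinery was mostly the leukocyte set, as a comparison of related genes on the RPKM scale shows. Among the small GTPases, Rac2, the Rac of blood cells, had 199.8 RPKM in fraction C and 223.4 in fraction B, and Rac1 had 58.8 and 50.6. Talin 1 (Tln1) had 91.8 RPKM in fraction C and 90.7 in fraction B, while Tln2, its relative, was at 0.1 in both. Gamma-parvin (Parvg), the parvin of blood cells, had 92.1 and 87.6 RPKM, beta-parvin (Parvb) 7.9 and 8.2, and alpha-parvin (Parva) was listed at 0 in both. Nedd9, the Cas adaptor of lymphocytes, had 76.8 RPKM in each fraction, and the broadly used Cas adaptor Bcar1 had 0 and 0.1. The kinase Ptk2b (Pyk2) had 56.1 and 59.7 RPKM, and Ptk2 (focal adhesion kinase, FAK) had 0.5 and 1.3. Kindlin 3 (Fermt3), the kindlin of blood cells, had 96.1 and 87.4 RPKM. The order within the talin, Cas and Rac families was the same in the 4 mutant libraries, where Tln2 stayed at 0.2 RPKM or less and Bcar1 at 0.1 or less.

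Of the integrin chains in wt, Itga4 was the highest alpha chain at 51.9 RPKM in fraction C and 53.2 in fraction B, or 47.3% and 44.3% of the RPKM summed over the 6 alpha chains. Itgal followed with 26.6 RPKM in fraction C and 39.9 in fraction B. The beta chains Itgb2 (39 and 56 RPKM) and Itgb1 (33.5 and 32.7 RPKM) led. Itga5, Itga6, Itgav, Itgb3 and Itgb7 were between 2 and 13 RPKM, and Itga2b, the platelet alpha chain, and Itgb5 were at 1 RPKM or less. With 1 library each, neighbours in this order such as Itgb1 and Itgb2 in fraction C cannot be said to differ.

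**Figure D2:**
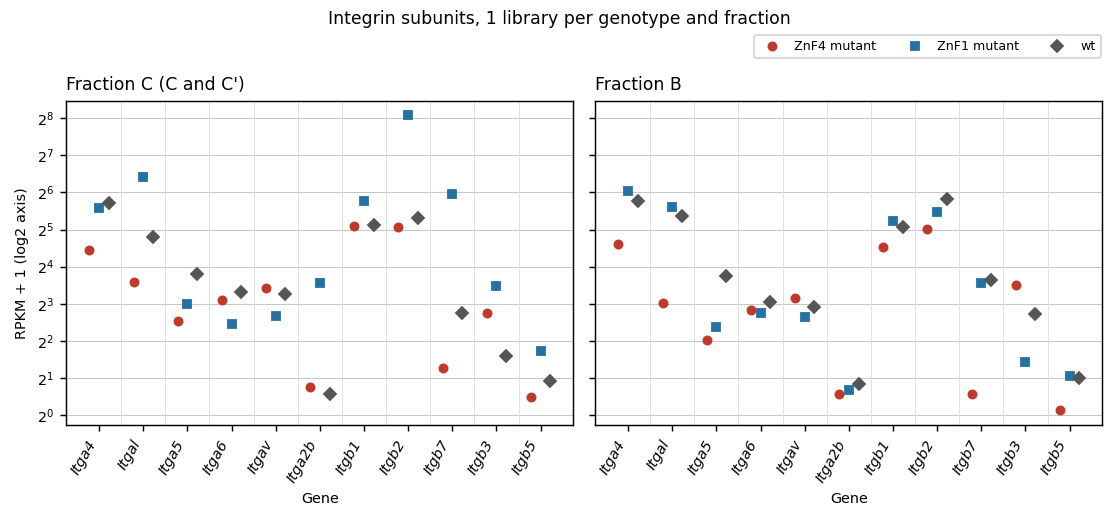
RPKM + 1 (log2 axis) of the 11 integrin subunits in fraction C (left) and fraction B (right), with 1 point per library for ZnF4, ZnF1 and wt. ZnF4 is the lowest of the 3 genotypes for Itga4, Itgal, Itga5, Itgb7 and Itgb5 in both fractions, and ZnF1 is far above the others for Itgal, Itga2b, Itgb2 and Itgb7 in fraction C but not in fraction B.

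The ZnF4 mutant was set against wt in each fraction, with 1 library for each, and sex and genotype cannot be told apart. In both fractions ZnF4 libraries held less RNA of 4 integrin chains, Itga4, Itga5, Itgal and Itgb7, of the linkers Zyx and Parvb, of the Rap1 effector Rassf5 and of the GTPase Rhob, each at least 2-fold lower on the log2(RPKM + 1) scale, which understates the change of low genes. At least 2-fold lower were 9 of 36 members in fraction C (6.12% of all 10943 genes) and 11 of 36 in fraction B (9.81% of all genes). In both fractions 8 of 36 were lower (4.73% of all genes) and 0 of 36 were higher (2.59% of all genes). At least 2-fold higher were 2 members in fraction C (3.55% of all genes), Itgb3 and Ptk2, and 0 in fraction B (3.7% of all genes). With libraries rescaled on B-lineage genes the split in fraction C was 1 higher and 14 lower, against 2 higher and 9 lower as deposited. The median member had a log2 fold of -0.23 in fraction C and -0.57 in fraction B, against medians of -0.05 and -0.09 over all genes.

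Itgb7 pairs with Itga4 in a homing receptor for the gut. It stood at 1.4 RPKM in ZnF4, 60.6 in ZnF1 and 5.8 in wt in fraction C. In fraction B it stood at 0.5 RPKM in ZnF4, 10.7 in ZnF1 and 11.5 in wt. ZnF4 was the lowest of the genotypes in each fraction, 2.83-fold and 8.33-fold below wt. Its partner Itga4, the alpha chain that binds Vcam1 when paired with Itgb1, had 21 RPKM in ZnF4, 47.1 in ZnF1 and 51.9 in wt in fraction C. In fraction B Itga4 had 23.4 RPKM in ZnF4, 64.2 in ZnF1 and 53.2 in wt. Both ZnF4 values lay under all 4 others, at 2.4-fold and 2.22-fold below wt. Itgb1, the common beta chain, was by contrast close to wt, at 33.3 RPKM in ZnF4, 53.4 in ZnF1 and 33.5 in wt in fraction C and at 22 in ZnF4, 36.6 in ZnF1 and 32.7 in wt in fraction B.

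Itgal, the alpha chain of the Icam1 receptor, had 11 RPKM in ZnF4, 83.9 in ZnF1 and 26.6 in wt in fraction C. It had 7.1 RPKM in ZnF4, 47.6 in ZnF1 and 39.9 in wt in fraction B. Both ZnF4 values lay below every other library, 2.3-fold and 5.05-fold below wt, and Itgal made up 20.1% and 14.7% of the summed alpha chains in ZnF4 against 24.2% and 33.2% in wt. Itgb2, its beta chain, had 32.6 RPKM in ZnF4, 268.1 in ZnF1 and 39 in wt in fraction C and 31.4 in ZnF4, 43.3 in ZnF1 and 56 in wt in fraction B, which is under 2-fold from wt for ZnF4 in both. Itga5, the fibronectin receptor chain, was low in both mutants. It had 4.8 RPKM in ZnF4, 7 in ZnF1 and 13 in wt in fraction C and 3.1 in ZnF4, 4.2 in ZnF1 and 12.4 in wt in fraction B, and the 4 mutant values did not overlap with the wt values. Summed over the 11 integrin chains, ZnF4 held 128.2 RPKM against 190.9 in wt in fraction C and 112.7 against 226.9 in fraction B.

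Not all integrin chains were low in ZnF4. Itgb3, which pairs with Itgav and with Itga2b, had 5.7 RPKM in ZnF4, 10.2 in ZnF1 and 2 in wt in fraction C. It had 10.4 RPKM in ZnF4, 1.7 in ZnF1 and 5.6 in wt in fraction B. ZnF4 exceeded wt 2.23-fold in fraction C and 1.73-fold in fraction B, and the value of fraction C dropped to a log2 fold of 0.69 when libraries were rescaled on B-lineage genes. Itgav (9.7 RPKM in ZnF4 and 8.7 in wt in fraction C, 8 and 6.5 in fraction B) and the laminin receptor chain Itga6 (7.6 in ZnF4 and 9 in wt in fraction C, 6.2 and 7.3 in fraction B) were within 1.5-fold of wt. Itgb5 was at 0.4 RPKM in ZnF4 and 0.9 in wt in fraction C and at 0.1 and 1 in fraction B.

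Zyx encodes zyxin, which gathers Vasp at focal adhesions. It was at 6.5 RPKM in both ZnF4 libraries, at 197.9 in ZnF1 and 26.1 in wt in fraction C, and at 40.6 in ZnF1 and 40.2 in wt in fraction B. ZnF4 was 3.61-fold below wt in fraction C and 5.49-fold below wt in fraction B. Parvb, a parvin that joins integrin-linked kinase (Ilk) to actin, had 1.4 RPKM in ZnF4, 16.7 in ZnF1 and 7.9 in wt in fraction C. In fraction B Parvb had 0.6 RPKM in ZnF4, 7.2 in ZnF1 and 8.2 in wt. Both genes were thus near wt in the ZnF1 library of fraction B and low in both ZnF4 libraries. Vcl (vinculin, 2.05-fold) and Pxn (paxillin, 2-fold) were at or just past the 2-fold line in fraction B alone, with 5.3 and 18.1 RPKM in ZnF4 against 11.9 and 37.2 in wt. In fraction C Vcl had 8 RPKM in ZnF4 and 10.1 in wt, and Pxn 19.9 and 33.2. Both lost the 2-fold call in fraction B when the median gene was set to no change (log2 folds of -0.95 and -0.91).

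Within 1.5-fold of wt in both fractions were 6 of 14 linkers in ZnF4, namely Tln1, Flna, Actn4, Ilk, Lims1 and Fermt3. So were 4 of 10 integrin chains (14 of 36 members, 62.8% of all genes). Of these chains Itga2b was near the floor, at 0.7 RPKM in ZnF4 and 0.5 in wt in fraction C and 0.5 and 0.8 in fraction B. It was kept only through the ZnF1 library of fraction C (10.7 RPKM), so its small fold says little. The main activators of the beta tail were among the linkers within 1.5-fold. Tln1 had 83.5 RPKM in ZnF4 and 91.8 in wt in fraction C and 85.4 and 90.7 in fraction B. Fermt3 had 76.5 RPKM in ZnF4 and 96.1 in wt in fraction C and 73.3 and 87.4 in fraction B. Nedd9 was on the high side, at 115.9 RPKM in ZnF4 and 76.8 in wt in fraction C and at 119.4 and 76.8 in fraction B. As sets, integrin chains and linkers were close to each other, with median log2 folds of -0.23 and -0.25 in fraction C and of -0.68 and -0.56 in fraction B.

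**Figure D3:**
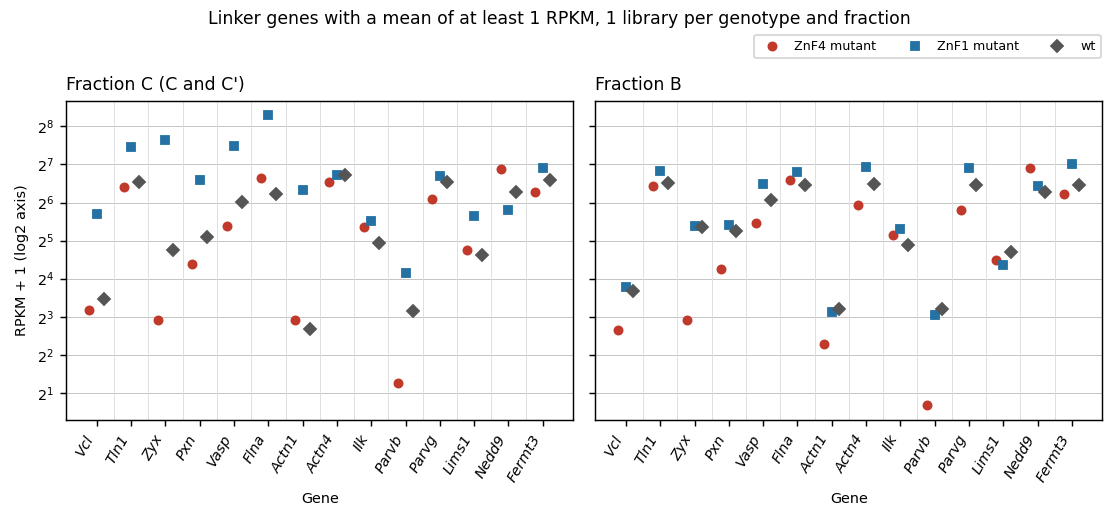
RPKM + 1 (log2 axis) of the 14 linkers averaging at least 1 RPKM, in fraction C (left) and fraction B (right), with 1 point per library. Zyx and Parvb are lowest in ZnF4 in both fractions (Zyx 6.5 RPKM in each), while the 3 genotypes lie close together for Ilk, and the ZnF1 library of fraction C is the highest for Vcl, Zyx, Flna and Actn1.

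Upstream of the integrins, Rassf5, an effector through which Rap1 acts on Itgal, had 16 RPKM in ZnF4, 69.7 in ZnF1 and 46.2 in wt in fraction C. In fraction B it had 15.7 RPKM in ZnF4, 59.3 in ZnF1 and 48.1 in wt. The ZnF4 values were the lowest in both, at 2.78-fold and 2.94-fold below wt. Rap1a was also low in ZnF4, at 2.4 RPKM against 7.1 in wt in fraction C (2.38-fold) and at 2 against 4.7 in fraction B (1.9-fold), while Rap1b, the more abundant Rap1, stayed within 1.5-fold (78.8 in ZnF4 and 90.1 in wt in fraction C, 60.6 and 79.7 in fraction B). Rhob, a small GTPase of endosomes, was at 2.9 RPKM in both ZnF4 libraries, at 23.6 in ZnF1 and 9.5 in wt in fraction C, and at 13.3 in ZnF1 and 11.5 in wt in fraction B. Rac2 (260.7 RPKM in ZnF4 and 199.8 in wt in fraction C, 257.5 and 223.4 in fraction B) and Cdc42 (72.1 and 80.9 in fraction C, 58.9 and 77.8 in fraction B, ZnF4 and wt) were within 1.5-fold. Rac1 had 39.3 RPKM in ZnF4 and 58.8 in wt in fraction C and 30.2 and 50.6 in fraction B.

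Of the kinases, Ptk2b had 87 RPKM in ZnF4, 57.5 in ZnF1 and 56.1 in wt in fraction C and 105.1 in ZnF4, 47.9 in ZnF1 and 59.7 in wt in fraction B, so that both ZnF4 values lay above all others. Ptk2 was low throughout, with 3.9 RPKM in ZnF4, 1.1 in ZnF1 and 0.5 in wt in fraction C (3.27-fold, ZnF4 over wt) and 2.2 in ZnF4, 4.6 in ZnF1 and 1.3 in wt in fraction B. A second Ptk2 transcript of 4446 bases had 1.9 RPKM in ZnF4, 0.6 in ZnF1 and 0.2 in wt in fraction C and 1.1 in ZnF4, 2.4 in ZnF1 and 0.4 in wt in fraction B, the same order of genotypes. How reads shared by transcripts were divided is not given in the sources used here. Cd44, a receptor for hyaluronan, had 13.8 RPKM in ZnF4 and 26.1 in wt in fraction C (1.83-fold) and 12.9 and 31.3 in fraction B (2.32-fold). The tetraspanin Cd9, which sits beside integrins in the membrane, had 7.3 RPKM in ZnF4 and 11.5 in wt in fraction C and 6.2 and 13.3 in fraction B.

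Markers of other cells also differed between ZnF4 and wt, and not all in one direction. In ZnF4 the granulocyte and monocyte markers stood 1.55-fold below wt in fraction C and 3.82-fold below it in fraction B, and NK markers 5.58-fold and 41.1-fold below. Markers of plasmacytoid dendritic cells had median log2 folds of -0.74 in fraction C (4 of 9 at least 2-fold lower, 1 higher) and -2.05 in fraction B (5 of 9 lower). Their sum was 1.36-fold above wt in fraction C and 1.06-fold below it in fraction B. Red cell markers were 1.26-fold and 2.25-fold below wt, and T cell markers 1.72-fold below in each. Stroma and endothelium markers were 1.16-fold and 1.3-fold above wt. Platelet markers were 1.3-fold above it in fraction C and 1.28-fold below it in fraction B. Granulocytes, monocytes and NK cells are known to carry Itgal and Itgb2. The part of such cells in the members' values was not tested. Fewer such cells and less RNA per cell cannot be told apart in bulk RNA. In the ZnF1 library of fraction B the granulocyte and monocyte markers were 2.26-fold and the NK markers 1.62-fold below wt, and those of plasmacytoid dendritic cells had a median log2 fold of -0.13. Of the 8 genes low in both ZnF4 libraries, Itga5 was 2.58-fold below wt in that library, and the other 7 lay between 1.01-fold (Zyx) and 1.23-fold (Rassf5) from wt. B-lineage markers were 1.65-fold and 1.48-fold higher in ZnF4 than in wt.

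A limma model with genotype and fraction as additive terms, fitted to all 10943 genes of the 6 libraries, called 0 of 36 members for ZnF4 against wt (3 genes in all, 0.0274%). With 1 library for each genotype and fraction, the spread behind its p-values comes only from departures from additive effects of genotype and fraction, not from replicates. There were 2 residual degrees of freedom, and 1 with a library left out. At an unadjusted p under 0.05 it had 12 members, 11 lower and 1 higher (17.6% of all genes). The smallest adjusted p was that of Rassf5 (log2 -1.51, SE 0.17, limma adjusted p = 0.0896, 0.00442 to 0.953 over the alternatives), lower in 2 of 2 fractions. Without the ZnF1 library of fraction C, where the lone ZnF1 library is assumed to vary like the others, limma called 18 members, 15 lower and 3 higher (31.6% of all genes). Those included the 8 genes named above, from Rassf5 (adjusted p = 0.00482) to Itgb7 (log2 -2.28, SE 0.39, adjusted p = 0.0174, 0.0165 to 1 over the alternatives). The 3 higher ones were Itgb3, Ptk2b and Nedd9. Without the ZnF1 library of fraction B it also called 18 (30.8% of all genes), and without any 1 of the wt or ZnF4 libraries it called 0.

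The promoters of the genes low in both ZnF4 libraries were looked up because Ikaros binds DNA with the core letters GGGAA. The 250 bases before the start of the gene are shown for the 4 of the 8 genes whose lesser fold of the fractions was greatest and that are in the RefSeq promoter table (GRCm38.p6). They are also shown for Fgd2, the only member at least 2-fold from wt in the same direction in both fractions of the ZnF1 mutant (below). Capitals mark GGGAA on either strand (TTCCC on the strand shown), which also holds GGAA, the core of Ets factors. Each runs 5′ to 3′ on the strand of its gene: Zyx at chr6:42349578-42349827 (plus), Parvb at chr15:84231793-84232042 (plus), Itgb7 at chr15:102231936-102232185 (minus), Rassf5 at chr1:131200186-131200435 (minus) and Fgd2 at chr17:29360664-29360913 (plus).
Zyx: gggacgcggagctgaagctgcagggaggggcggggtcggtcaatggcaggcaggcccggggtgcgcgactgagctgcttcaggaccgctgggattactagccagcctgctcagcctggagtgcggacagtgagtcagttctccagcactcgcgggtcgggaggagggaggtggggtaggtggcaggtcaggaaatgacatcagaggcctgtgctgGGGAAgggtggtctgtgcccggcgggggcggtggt
Parvb: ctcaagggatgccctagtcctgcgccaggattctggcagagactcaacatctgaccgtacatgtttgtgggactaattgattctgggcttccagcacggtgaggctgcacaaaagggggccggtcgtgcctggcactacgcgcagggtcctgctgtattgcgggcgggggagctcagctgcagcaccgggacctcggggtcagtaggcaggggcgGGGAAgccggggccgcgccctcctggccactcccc
Itgb7: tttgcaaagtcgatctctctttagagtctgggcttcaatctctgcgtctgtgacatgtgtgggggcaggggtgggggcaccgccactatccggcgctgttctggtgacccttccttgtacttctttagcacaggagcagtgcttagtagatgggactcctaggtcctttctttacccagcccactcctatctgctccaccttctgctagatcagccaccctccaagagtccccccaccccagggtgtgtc
Rassf5: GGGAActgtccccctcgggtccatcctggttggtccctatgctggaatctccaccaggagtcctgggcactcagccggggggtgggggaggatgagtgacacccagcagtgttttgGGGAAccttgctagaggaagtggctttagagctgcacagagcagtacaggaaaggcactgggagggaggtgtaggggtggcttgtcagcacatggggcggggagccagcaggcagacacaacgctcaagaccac
Fgd2: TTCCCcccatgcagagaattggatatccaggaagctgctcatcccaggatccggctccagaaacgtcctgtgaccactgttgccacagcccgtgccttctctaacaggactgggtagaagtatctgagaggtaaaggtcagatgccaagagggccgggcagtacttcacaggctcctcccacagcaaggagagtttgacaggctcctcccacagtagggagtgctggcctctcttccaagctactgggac
The letters are present once in Zyx and Parvb, both starting 35 bases before the gene, and in Fgd2, 2 times in Rassf5 and not in the Itgb7 window. Over the 33 windows of the 28 members in the table, 23 held the letters (69.7%), as did 6 of 7 windows of the genes low in both ZnF4 libraries (85.7%) and 56.2% of all 32851 windows of this length. A match describes letters and not a bound site.

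**Figure D4:**
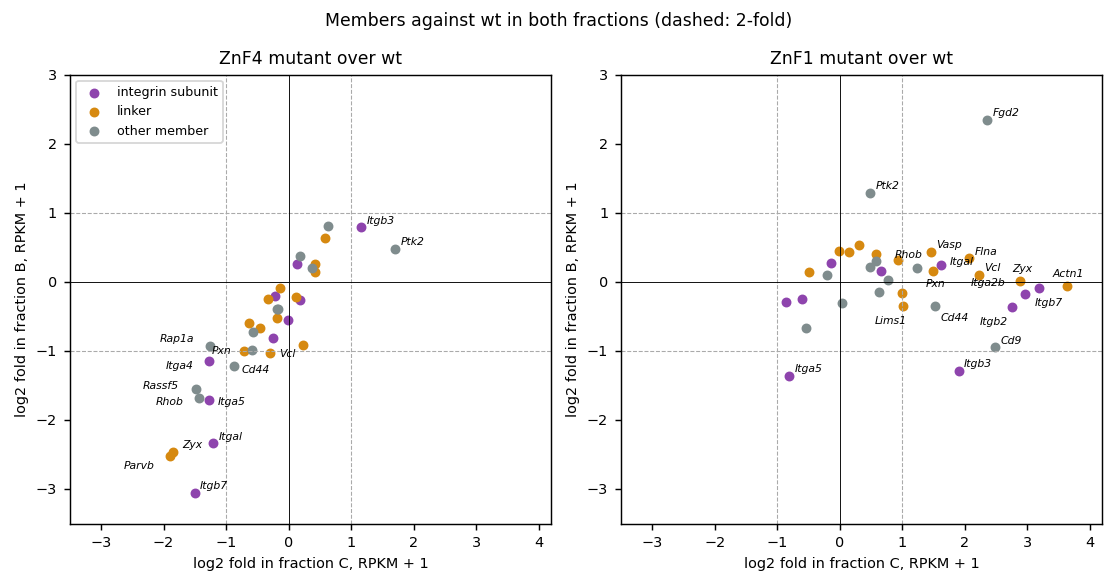
Log2 fold over wt of the 36 members, fraction C on the horizontal axis and fraction B on the vertical axis, for ZnF4 (left) and ZnF1 (right), coloured by role, with dashed lines at 2-fold. In ZnF4 8 members lie past 2-fold low in both fractions, and in ZnF1 Fgd2 alone lies past 2-fold high in both, while 15 further members are past 2-fold high in fraction C only.

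For the ZnF1 mutant the fractions differed. Fgd2 alone was at least 2-fold from wt in the same direction in both fractions, as higher (1 of 36, 0.758% of all genes), and 0 of 36 were lower in both (0.804% of all genes). In fraction B, 4 of 36 members were at least 2-fold apart (4.28% of all genes), 2 higher (2.07%) and 2 lower (2.21%), or 1 higher and 4 lower after rescaling on B-lineage genes. In fraction C, 16 of 36 were at least 2-fold higher (12.6% of all genes) and 0 lower (7.39% of all genes). The median member was at a log2 fold of 0.86 in fraction C and 0.09 in fraction B, against -0.16 and 0.04 over all genes. Rescaling on B-lineage genes moved the members upward, to a median of 1.44 in fraction C and downward in fraction B, where their median changed sign to -0.38.

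Fgd2, an exchange factor that loads Cdc42 with GTP, had 6.4 RPKM in ZnF4, 32.3 in ZnF1 and 5.5 in wt in fraction C. It had 14.7 RPKM in ZnF4, 60.3 in ZnF1 and 11.1 in wt in fraction B. The ZnF1 values did not overlap with the other 4, and lay 5.12-fold and 5.07-fold above wt. A second Fgd2 transcript of 2638 bases had 2.6 RPKM in ZnF1 and 0.3 in wt in fraction C and 4.2 and 0.8 in fraction B. Its target Cdc42 was within 1.5-fold of wt, at 114 RPKM in ZnF1 and 80.9 in wt in fraction C and 90.3 and 77.8 in fraction B. In the same libraries granulocyte and monocyte markers were 16-fold above wt in fraction C and 2.26-fold below it in fraction B, and the part of other cells in the Fgd2 values was not tested. In limma Fgd2 had a log2 fold of 2.35 (SE 0.17, adjusted p = 0.128, 0.0059 to 1 over the alternatives) for ZnF1 against wt, higher in 2 of 2 fractions. Without the ZnF1 library of fraction C it was the 1 member called (log2 2.29, SE 0.15, limma adjusted p = 0.0335), with 0.146% of all genes called.

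In fraction B the other 3 members past 2-fold in ZnF1 were Ptk2 (2.43-fold higher), Itga5 (2.58-fold lower) and Itgb3 (2.44-fold lower), whose values are given above. Ptk2 fell to a log2 fold of 0.80 when rescaled on B-lineage genes. All 14 linkers were within 1.5-fold of wt there, 11 of them on the high side, with a median log2 fold of 0.24 that became -0.24 after rescaling on B-lineage genes. The integrin chains had a median of -0.21, and -0.69 after that rescaling. Over both fractions limma called 0 of 36 members for ZnF1 against wt (3 genes in all, 0.0274%), and 4 had an unadjusted p under 0.05 (9.3% of all genes), Fgd2, Vasp and Ilk as higher and Itga5 as lower.

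The 16 members past 2-fold above wt in ZnF1 in fraction C were 5 integrin chains, 7 linkers, Cd9, Cd44, Rhob and Fgd2. The largest was Actn1, an alpha-actinin abundant in platelets, with 78.7 RPKM in ZnF1 and 5.4 in wt (12.5-fold), against 7.8 and 8.2 in fraction B. Itgb7 (9.06-fold), Itga2b (7.8-fold, 10.7 RPKM in ZnF1 and 0.5 in wt), Zyx (7.34-fold), Itgb2 (6.73-fold), Cd9 (5.58-fold, 68.7 and 11.5 RPKM), Fgd2 (5.12-fold) and Vcl (4.66-fold, 50.7 and 10.1 RPKM) followed. Flna (filamin A) had 313.5 RPKM in ZnF1 and 73.8 in wt, Vasp 178 and 64.2, Pxn 94.7 and 33.2, Cd44 77.1 and 26.1 and Lims1 49.2 and 23.8. Itga2b passed the level of 1 RPKM only through this library, since it was at 0.8 RPKM or less in the other 5.

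The same library held 16-fold more RNA of granulocyte and monocyte markers than wt, 13-fold more of red cell markers, 13.5-fold more of platelet markers and 2.28-fold more of NK markers, and markers of plasmacytoid dendritic cells had a median log2 fold of 1.23. Its part in the members' values was not tested, and library and genotype cannot be told apart with 1 library per group. Other members were close to wt or below it. In that library Actn4 had 104.4 RPKM against 105.2 in wt, Parvg 102.3 against 92.1, Fermt3 119.1 against 96.1 and Ptk2b 57.5 against 56.1. Itga4 (47.1 RPKM in ZnF1 and 51.9 in wt), Itga5 (7 and 13), Itga6 (4.5 and 9), Itgav (5.4 and 8.7) and Nedd9 (54.6 and 76.8) were on the low side there. Itgb2 made up 67.9% of the summed beta chains in that library, against 48% in wt, and Itgb1 13.5% against 41.3%.

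Set against each other, the mutants differed in 20 of 36 members by at least 2-fold in fraction C (21.6% of all genes), 2 higher in ZnF4 (7.41% of all genes) and 18 lower (14.1% of all genes). In fraction B they differed in 14 (15.9% of all genes), 2 higher (4.95% of all genes) and 12 lower (10.9% of all genes). Higher in ZnF4 were Ptk2 and Nedd9 in fraction C (2.33-fold and 2.1-fold) and Itgb3 and Ptk2b in fraction B (4.22-fold and 2.17-fold). These comparisons share their libraries with those against wt, and Xist was listed at 0 in both mutants. In fraction C granulocyte and monocyte markers were 24.8-fold and NK markers 12.7-fold lower in ZnF4 than in ZnF1. In fraction B they were 1.69-fold and 25.3-fold lower, and markers of plasmacytoid dendritic cells had a median log2 fold of -1.49. The part of these cells in the members' values was not tested. The largest folds in fraction B were those of Itgb7 (7.8-fold lower in ZnF4), Itgal (6-fold), Zyx (5.55-fold) and Parvb (5.13-fold). Linkers had a median log2 fold of -1.36 in fraction C and -0.91 in fraction B, and integrin chains of -0.93 and -0.40. Here limma called 3 of 36 members (1.82% of all genes), all lower in ZnF4 in 2 of 2 fractions. They were Rassf5 (log2 -1.95, SE 0.17, adjusted p = 0.0377, 0.00234 to 0.458 over the alternatives), Fgd2 (-2.07, SE 0.17, adjusted p = 0.0377, 0.00253 to 0.45) and Parvb (-2.62, SE 0.33, adjusted p = 0.0498, 0.00307 to 0.458). A further 18 had an unadjusted p under 0.05, among 22.7% of all genes. The count was 0 without either ZnF4 library. It was 29 without the ZnF1 library of fraction B (37.5% of all genes) and 17 without the one of fraction C (24.6% of all genes).

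The step between fractions left most of these genes close in wt. Itgb3, at 2 RPKM in fraction C and 5.6 in fraction B, was the 1 member at least 2-fold apart (1.35% of all genes), 2.2-fold lower in fraction C (1.01% of all genes), and 0 of 36 were higher (0.338% of all genes). In ZnF4 the 1 such member (3.34% of all genes were apart) was Fgd2, 2.12-fold lower in fraction C (0.585% of all genes), with 0 higher (2.76% of all genes). Fgd2 was lower in fraction C in wt and ZnF1 as well, by 1.86-fold and 1.84-fold. In ZnF1, 13 of 36 were at least 2-fold higher in fraction C (10.1% of all genes), in the library with RNA of other cells, and Ptk2 was lower (1 of 36, 4.16% of all genes). In limma the step called 0 of 36 members (0% of all genes), and 1 had an unadjusted p under 0.05 (4.67% of all genes).

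Other genes of the pathway were taken from 4 further lists with 98 genes, of which 66 had a mean of at least 1 RPKM. In ZnF4, 7 of them were at least 2-fold higher than wt in both fractions (2.59% of all genes) and 8 lower (4.73% of all genes). The highest were Lamb1, a laminin chain (8.3 RPKM in ZnF4 and 0.2 in wt in fraction C, 5.2 and 0.2 in fraction B), Rapgef3, an exchange factor for Rap1 that responds to cAMP (11 and 2.5, 17.8 and 3.5), and the integrin ligand Spp1 (osteopontin; 18.3 and 4, 9.5 and 2.5). The lowest were Fyb, an adaptor that links receptor signals to integrins (0.8 RPKM in ZnF4 and 7 in wt in fraction C, 0.3 and 14.5 in fraction B), the matrix protein Thbs1 (0.6 and 5, 0.2 and 6.6) and the alpha chain Itgax, listed at 0 in both ZnF4 libraries and at 1.8 and 4.9 in wt. Among 17 further activators and brakes of integrins, 2 were higher and 3 lower in both fractions, and among 34 further adaptors, kinases and actin proteins 2 were higher and 2 lower. The 11 ligands had 2 higher and 2 lower, and of 4 further integrin chains Itga9 was higher and Itgax lower. In ZnF1, 0 of the 66 were higher in both fractions (0.758% of all genes) and 1 was lower (0.804% of all genes). That was Col1a1, a collagen chain (0.7 RPKM in ZnF1 and 4.6 in wt in fraction C, 0.1 and 1.2 in fraction B). Col1a1 is also one of the stroma and endothelium markers, of which 3 of 7 were lower and 1 higher in ZnF1 in both fractions. Fyb (48.4 and 7) and Thbs1 (58.3 and 5) were high in the ZnF1 library of fraction C but not in that of fraction B (8.1 and 14.5, 1.2 and 6.6, ZnF1 and wt). The part of other cells in the values of these pathway genes was not tested.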

How the data were processed

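The deposited table gives RPKM per RefSeq transcript, a unit the authors computed, per the file headers, rounded to 0.1. TopHat, bedtools and build mm9 are named per the submitters' processing notes. For strand use and read totals, the sources used here give nothing. The table held 26532 entries, 1 without a gene name, and transcript lengths as listed by the authors. Each of 22098 symbols was represented by its transcript with the highest mean (3305 had several), and a gene was kept if its RPKM averaged 1 or more across the 6 libraries. Low values of short transcripts did not give back whole reads (28.4% to 42.2% of values per library at the best depth, 22.4% to 33.3% by chance), so the depth is unknown. Genes with near-identical copies are uncertain: Gapdh stood at 0.5 to 1.3 RPKM.

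Differences are log2(RPKM + 1) between a pair of libraries, called at 2-fold, with no test. limma 3.58.1 (R 4.3.3, lmFit, eBayes with trend) was fitted to all kept genes with genotype and fraction as additive terms. Calls were at a Benjamini-Hochberg adjusted p under 0.05, two-sided. The code was tried on simulated data with the same noise in every gene and library and additive changes only. No simulated library stood apart by RNA of other cells, so that trial does not show how the model behaves on these libraries. Alternatives were a pseudocount of 0.25, no filter or a mean of at least 5 RPKM, transcripts summed, the median gene set equal, rescaling on 12 B-lineage genes, each library left out and, in limma, only the 4 libraries of a genotype pair. Members past 2-fold in a mutant are given in full and the rest by range. Of the other pathway genes at most 3 at each end of the mean fold are named for a mutant, among those past 2-fold in both fractions. The members and lists were chosen with earlier results of these data known. Promoters come from RefSeq (GRCm38.p6), matched by symbol.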

Additional observations from a re-analysis of the deposited data

Results flagged for a closer look

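In the ZnF1 mutant 8 members lay on opposite sides of wt in the 2 fractions, with at least 1 of the folds past 2-fold (8 of 36, against 9.18% of all genes), and the difference between fractions was not tested. Log2 folds over wt were 2.96 in fraction C and -0.17 in fraction B for Itga2b, 2.75 and -0.36 for Itgb2, 1.90 and -1.29 for Itgb3, and 3.18 and -0.095 for Itgb7. They were 3.64 in fraction C and -0.064 in fraction B for Actn1, 1.02 and -0.35 for Lims1, 2.48 and -0.95 for Cd9, and 1.53 and -0.35 for Cd44. Itgb3 was past 2-fold in both. Of the others, Cd9 was 1.93-fold below wt in fraction B, and the rest were within 1.5-fold of wt there. The side of wt on which that rest lay in fraction B thus turns on small differences between single libraries. Itga2b passed the level of 1 RPKM only through the ZnF1 library of fraction C. Granulocyte and monocyte, red cell and platelet markers were high in that same library.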

How the results depend on the processing

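The counts of members at least 2-fold apart held within 1.5 times under most alternatives. Rescaling on B-lineage genes gave 17 (ZnF4 over wt, fraction B, in place of 11; 21.5% of all genes), 25 (ZnF1 over wt, fraction C, in place of 16; 24.2%), 31 (ZnF4 over ZnF1, fraction C, in place of 20; 45.3%) and 29 (fraction C over B in ZnF1, in place of 14; 53%). A pseudocount of 0.25 gave 2 in place of 1 for fraction C over B in both wt and ZnF4. The 8 members lower in both ZnF4 fractions stayed past 2-fold under all 6 alternatives run on the folds, and so did Fgd2 in ZnF1. Of the members past 2-fold against wt, 4 calls were lost, Vcl and Pxn (ZnF4, fraction B), Itgb3 (ZnF4, fraction C) and Ptk2 (ZnF1, fraction B). Rap1a, Ptk2 and Itga2b averaged under 5 RPKM, so their calls were not scored under that filter.

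Members called by limma ranged from 0 to 18 when a library was left out for ZnF4 against wt, from 0 to 24 for ZnF1 against wt (24 without the ZnF1 library of fraction B, with 37.6% of all genes called, and 1 without that of fraction C) and from 0 to 29 for ZnF4 against ZnF1 (5 when a wt library was left out). In the 4 libraries of the pair alone limma called 18 for ZnF4 against wt and 5 for ZnF4 against ZnF1. For ZnF4 against ZnF1 it called 5 with a pseudocount of 0.25, and 0 without the filter or after rescaling on B-lineage genes. Without the filter it called 1 for ZnF1 against wt. The cause was not tested, but leaving out a ZnF1 library leaves its genotype out of the residual spread. No paired analysis was possible because no replicate numbers link libraries across groups, and fraction already stands in the limma model as a term. With depth unknown, folds of genes under about 1 RPKM are the least certain.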
